A study of Mus musculus with 10 samples.

Results

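The Dlk1 to Dio3 domain is a cluster of imprinted genes on distal mouse chromosome 12, and 6 of its genes are described here: the protein-coding genes Dlk1, Rtl1 and Dio3 and the long noncoding RNA genes Meg3, Rian and Mirg. They were chosen by symbol, not by their values, and are 6 of the 36066 gene rows of an expression table. The table holds RNA-seq of 10 libraries of mouse cells of strain C57BL6, 2 replicates for each of 5 groups, in TPM (a level per length of transcript, scaled to the same sum in each library).

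ESCs were a female embryonic stem cell line from fertilized embryos, and pESCs were a parthenogenetic line, made from activated oocytes that hold maternal chromosomes alone. ESC-PGCLCs and pESC-PGCLCs are primordial germ cell-like cells induced from each line, by way of epiblast-like cells grown for 2 days with bFGF and Activin A and then 4 days with BMP4, SCF, EGF and LIF. Per the study's methods, the lines carry a GFP transgene driven by the β-actin promoter, and PGCLCs were sorted with antibodies to SSEA1 and CD61, and PGCs either with both or by magnetic beads with the SSEA1 antibody alone. Which sort gave the PGC libraries is not given in the sources used here. PGCs are primordial germ cells from the embryo. Their labels give no embryonic day, and the methods describe female embryos of more than 1 day. Replicates carry a number only, so p-values measure the spread between these samples, which may be technical. Each stem cell group is 1 named line, and the origin of a line and the line itself cannot be told apart.

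In this domain the paternal chromosome is the methylated one: a region between Dlk1 and Meg3 gains methylation in sperm, the paternal copy then expresses Dlk1, Rtl1 and Dio3, and the unmethylated maternal copy expresses Meg3, Rian and Mirg. The noncoding genes are read in one direction, as RNA that also carries clusters of small nucleolar RNAs and microRNAs. Cells with maternal chromosomes alone therefore make it possible to look at the domain without a sperm-derived copy, and PGCs are the cells in which such parental marks are erased.

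On build GRCm38 (GENCODE M21), Dlk1 lies at chr12:109452823-109463336 on the plus strand, Meg3 at chr12:109541001-109571726 on the plus strand, and Rtl1 at chr12:109589193-109600330 on the minus strand. Rian lies at chr12:109603940-109661716, Mirg at chr12:109729764-109749460 and Dio3 at chr12:110279068-110281097, all on the plus strand. Another 52 rows of the table fall between the start of Dlk1 and the end of Dio3, among them 18 snoRNA rows, 21 miRNA rows and 7 lincRNA rows, and 48 of the 52 had a read in some library.

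The sequences show small RNAs that the maternal RNA carries, among them hairpins that lie within Rtl1. Of the 58 microRNA hairpins that RefSeq (GRCm38.p6) places in the domain, 7 lie within Rtl1, and 6 of these are on the strand opposite to it. One mature microRNA of each of the 6 is printed in the order of the chromosome, to show the transcripts that run through the Rtl1 gene on the other strand, with the seed (bases 2 to 8) in capitals.
miR-431-5p: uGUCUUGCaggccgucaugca
miR-433-3p: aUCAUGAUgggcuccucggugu
miR-127-3p: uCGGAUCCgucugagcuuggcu
miR-434-3p: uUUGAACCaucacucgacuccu
miR-432: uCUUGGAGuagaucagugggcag
miR-136-5p: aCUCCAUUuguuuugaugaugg
They lie between chr12:109590459-109590479 (miR-431-5p) and chr12:109595331-109595352 (miR-136-5p), and no pair of the 6 printed has the same seed. Over all 114 mature microRNAs of the domain, 9 seeds are shared by 2 arms.

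The snoRNAs of the domain are of the C/D type, named for short motifs near their ends, and 13 of the 18 snoRNA genes lie inside Rian. Of the 18, 9 hold both the box C motif TGATGA in their first 20 bases and the box D motif CTGA in their last 20, searched on the strand of the gene. The snoRNA rows with the highest mean level are Gm23347, AF357425, Gm26922 and Gm24895. All but Gm23347, which has no box C of these letters and lies in a transcript of unsettled class downstream of Rian, sit wholly in exons of Rian. These snoRNAs are printed for their high mean level, with boxes found in capitals.
AF357425 (chr12:109636012-109636084, plus strand): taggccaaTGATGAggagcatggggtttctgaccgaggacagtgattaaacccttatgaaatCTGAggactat
Gm24895 (chr12:109646129-109646202, plus strand): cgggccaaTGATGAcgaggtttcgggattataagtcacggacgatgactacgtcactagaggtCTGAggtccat
Gm26922 (chr12:109654627-109654698, plus strand): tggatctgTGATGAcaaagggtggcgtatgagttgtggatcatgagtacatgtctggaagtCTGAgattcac
Gm23347 (chr12:109673913-109673994, plus strand): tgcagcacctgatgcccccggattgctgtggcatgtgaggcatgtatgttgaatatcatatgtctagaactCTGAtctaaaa

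The promoter of Meg3, the first gene of the noncoding run, is printed because Meg3 and Rian moved together below. It covers 300 bases of RefSeq around the start, 250 before it and 50 after, and holds 13 CpG dinucleotides, where the median of 32851 mouse promoters is 7. Capitals mark GCGGCA, the complement of the ZFP57 motif TGCCGC, and TGACGTCA, a cyclic AMP response element. On either strand, 11.6% of all promoters hold the former and 1.79% the latter, and each match is a description of letters alone.
Meg3 promoter (chr12:109540746-109541045, plus strand): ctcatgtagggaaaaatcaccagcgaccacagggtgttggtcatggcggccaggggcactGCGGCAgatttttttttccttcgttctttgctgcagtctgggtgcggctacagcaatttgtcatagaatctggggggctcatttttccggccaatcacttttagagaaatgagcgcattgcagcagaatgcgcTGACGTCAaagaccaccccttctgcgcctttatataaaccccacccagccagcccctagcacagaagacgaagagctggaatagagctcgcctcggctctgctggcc

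All 6 genes were weakly expressed, at no more than 3.84 TPM in a library. The libraries held between 6779848 and 18572926 reads, as recovered from TPM and exon length, and the reads behind a value are given where they were few. Depth went with group: the ESC-PGCLC libraries were the shallowest (7697696 and 6779848 reads), and every other library held 11140838 or more. The absence of reads in ESC-PGCLCs therefore says less than in the other groups. Groups were compared with limma on log2(TPM + 1) over 27259 genes, with Benjamini-Hochberg adjustment over all of them. Called here means an adjusted p under 0.05 and a difference of 2-fold or more on that scale. The added 1 shrinks the change of genes under 1 TPM, so folds of mean TPM are given beside it. Where a group held no read, the fold is a lower bound against 3 reads per library, and such bounds and intervals cover counting error only. The 2-sided exact permutation test of 2 against 2 libraries cannot go below p = 0.333, and none was run. In bulk RNA, fewer cells that express a gene and less RNA per cell cannot be told apart.

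Stem cells of both origins expressed the maternal noncoding genes, and both kinds of PGCLC held far less of Meg3 and Rian. Meg3 fell 7.74-fold and Rian 14.7-fold from ESCs to ESC-PGCLCs, and Meg3 fell 5.16-fold and Rian 7.77-fold from pESCs to pESC-PGCLCs. Dlk1 had no read in the 4 stem cell libraries and was highest in PGCs. No member was called between pESCs and ESCs, or between the PGCLCs of the 2 origins.

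**Figure D1:**
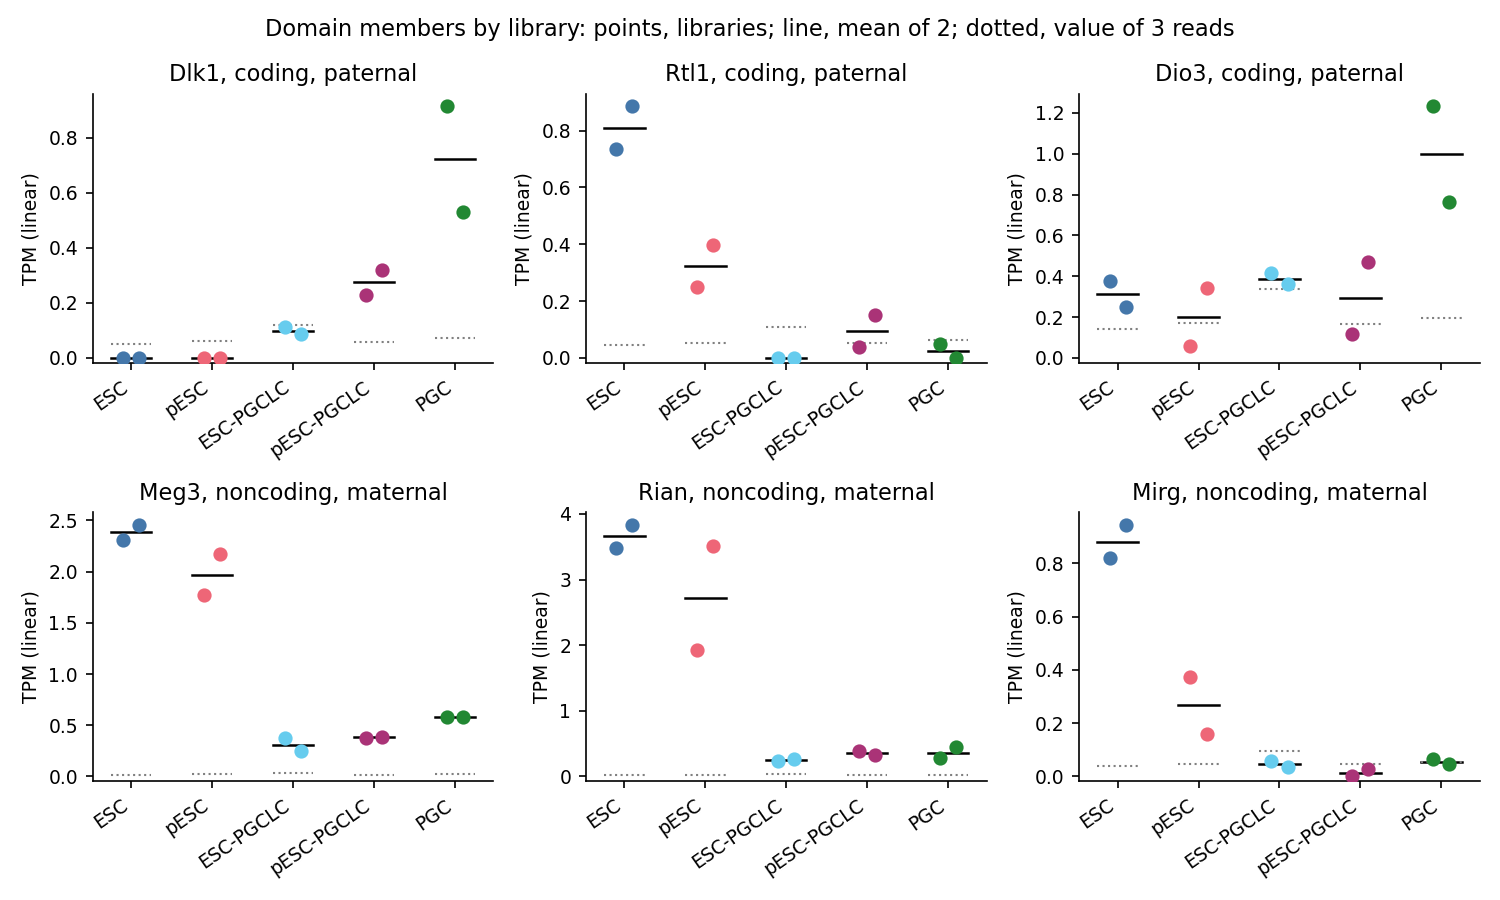
Level of each member in TPM (linear axis) by group, where points are single libraries, the solid line is the mean of 2 and the dotted line is the level of 3 reads. Meg3, Rian and Mirg sit high in the stem cell groups and low in the other groups, and Dlk1 and Dio3 have their highest points in PGCs.

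Meg3, a nuclear noncoding RNA, stood at 2.31 and 2.46 TPM in the ESC libraries and at 1.77 and 2.17 TPM in the pESC libraries. It stood at 0.372 and 0.244 TPM in ESC-PGCLCs, at 0.377 and 0.388 TPM in pESC-PGCLCs and at 0.581 TPM in both PGC libraries. Every stem cell library was above every library of the other groups (of all genes tested, 32.5% lay wholly lower in ESC-PGCLCs than in ESCs and 19.1% in pESC-PGCLCs than in pESCs). The PGC libraries were above all 4 PGCLC libraries (50.0% of all genes lay wholly higher in PGCs than in ESC-PGCLCs and 37.4% in PGCs than in pESC-PGCLCs). Between ESCs and ESC-PGCLCs Meg3 changed by -1.37 on the log2 scale (SE 0.151, limma adjusted p = 0.000177), and between pESCs and pESC-PGCLCs by -1.10 (SE 0.151, adjusted p = 0.000663). The difference between the 2 changes was 0.27 (adjusted p = 0.426) and was not past the threshold. These values rested on 18 to 529 reads a library, and 4.04% of the 50-base stretches of Meg3 also occur in genes elsewhere. The summed level of 7 pluripotency markers moved alongside, from 637 TPM or more in every stem cell library to at most 222 TPM in every other one. Nanog and Zfp42 made up most of the sum in stem cells. From ESCs to ESC-PGCLCs 6 of the 7 markers were called lower and 1, Sox2, higher, beside 14.5% and 15.3% of all genes. Sox2 stood at 32.7 and 44.6 TPM in ESCs and at 97.3 and 110 TPM in ESC-PGCLCs (1.42, limma adjusted p = 0.00313). From pESCs to pESC-PGCLCs 5 of the 7 were called lower and 0 higher, beside 6.8% and 20.8% of all genes. All 7 changes were negative there, with Sox2 at -0.81 (limma adjusted p = 0.0409) and not called. The part of the loss of pluripotency markers in the fall of Meg3 was not tested.

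Rian, the host of the C/D snoRNAs, stood at 3.49 and 3.84 TPM in ESCs and at 1.92 and 3.52 TPM in pESCs. It stood at 0.231 and 0.269 TPM in ESC-PGCLCs, at 0.380 and 0.321 TPM in pESC-PGCLCs, and at 0.275 and 0.443 TPM in PGCs. The stem cell libraries lay above all others. The PGC libraries lay above both ESC-PGCLC libraries, as they did for 50.0% of all genes tested, and overlapped those of pESC-PGCLCs. Rian changed by -1.90 from ESCs to ESC-PGCLCs (log2, SE 0.220, limma adjusted p = 0.000233) and by -1.43 from pESCs to pESC-PGCLCs (SE 0.220, adjusted p = 0.00118), with a difference of 0.47 between the changes (adjusted p = 0.338).

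Mirg, the host of the distal microRNA cluster, stood at 0.819 and 0.946 TPM in ESCs and at 0.375 and 0.158 TPM in pESCs. No library of the other groups passed 0.0645 TPM, and they held between 0 and 3 reads each. The pESC libraries lay between the ESCs and all the rest, without overlap. Of all genes tested, 31.3% lay wholly lower in pESCs than in ESCs and 19.1% in pESC-PGCLCs than in pESCs. In RPM (reads in each 1000000 of the library) Mirg was 19.96-fold lower in ESC-PGCLCs than in ESCs (exact 95% interval 6.69 to 98.0) and 21.3-fold lower in pESC-PGCLCs than in pESCs (5.47 to 183). On the log2(TPM + 1) scale the former difference was -0.85 (limma adjusted p = 0.000384) and the latter -0.31 (adjusted p = 0.0455), both short of 2-fold on that scale, and neither was called.

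In each of the 2 comparisons with stem cells, 2 of the 6 members were called, both lower. From ESCs to ESC-PGCLCs, 29.8% of all genes tested were called, 15.3% higher and 14.5% lower, so the share of members called is near that of all genes. From pESCs to pESC-PGCLCs, 27.6% were called, 20.8% higher and 6.8% lower. In the latter comparison quantile normalization split the calls as 3293 higher and 3033 lower, against 5681 and 1854 without it. The median change of the members was -0.85 and -0.30 in these comparisons, beside 0.05 and 0.22 over all genes. With 0.1 added in place of 1, 4 members were called in each, beside 44.1% and 41.4% of all genes. By limma-voom on the recovered reads 5 were called in each, Dlk1 higher and the others lower, beside 45.4% and 41.8% of all genes.

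**Figure D2:**
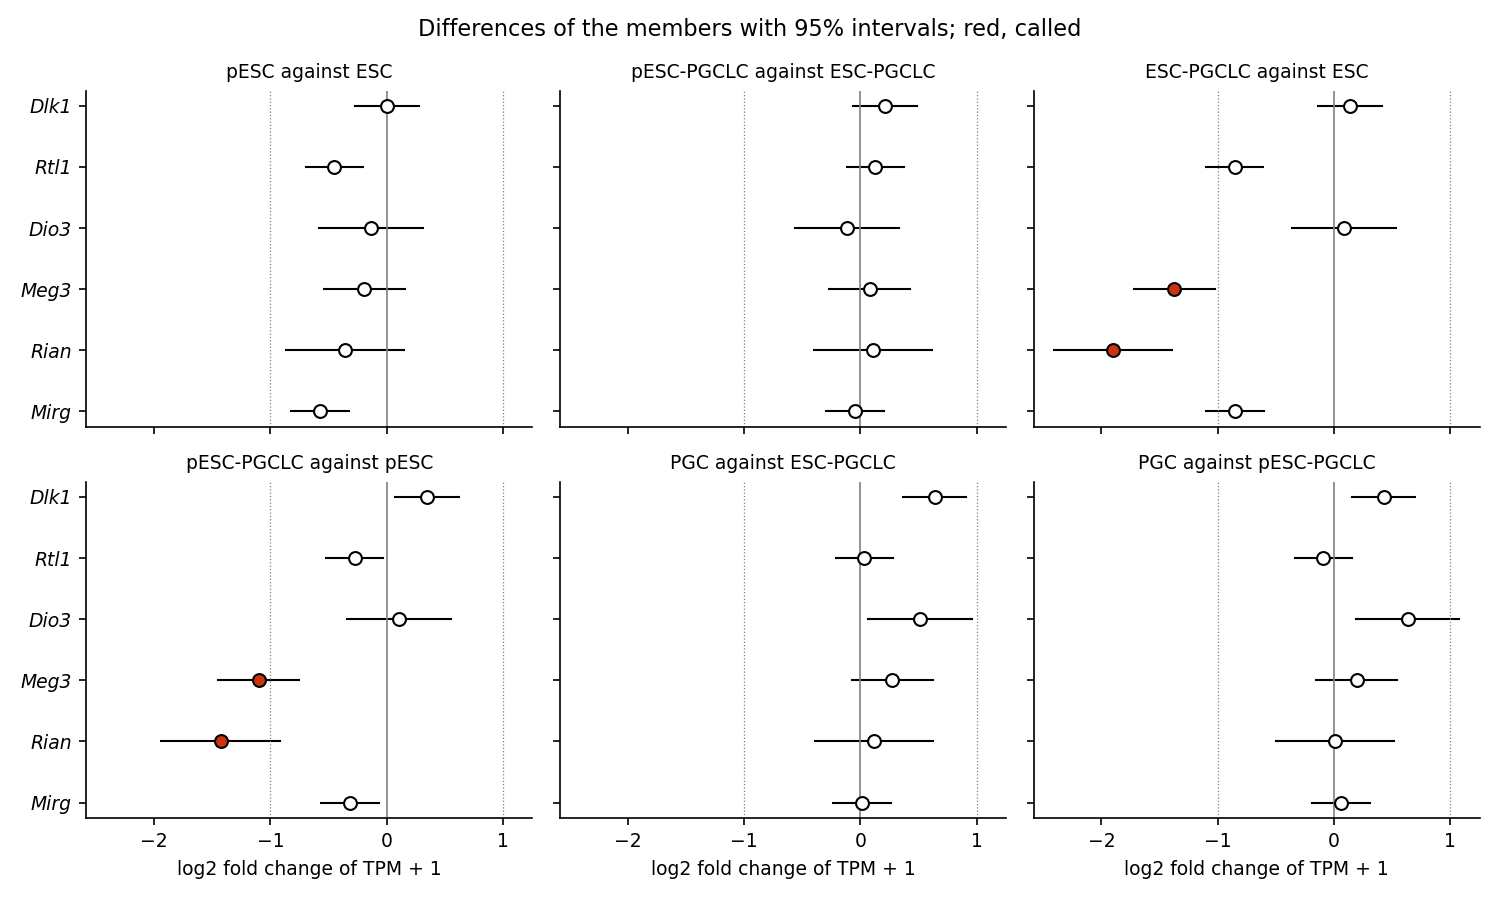
Difference of each member between groups in log2(TPM + 1), with 95% intervals from limma, for 6 comparisons of groups, filled in red where called, with dotted lines at a 2-fold change. Meg3 and Rian lie furthest below 0 in both comparisons of PGCLCs with their stem cells, and Dlk1 lies above 0 in PGCs against both kinds of PGCLC. The point of Dlk1 between pESCs and ESCs rests on no reads.

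The paternally expressed genes did not share 1 pattern. Rtl1, a retrotransposon-derived gene needed in the placenta, stood at 0.734 and 0.886 TPM in ESCs (43 and 67 reads) and at 0.251 and 0.399 TPM in pESCs (14 and 22 reads). ESC-PGCLCs held no read, pESC-PGCLCs stood at 0.0369 and 0.150 TPM (2 and 9 reads), and PGCs at 0.0493 and 0 TPM (2 and 0 reads). Its levels were thus ordered like those of the noncoding genes, with ESCs above pESCs and both above the rest. The level in ESC-PGCLCs was at least 7.53-fold lower than in ESCs, and that in pESC-PGCLCs was 3.47-fold lower than in pESCs. On the log2(TPM + 1) scale these differences were -0.85 (limma adjusted p = 0.00034) and -0.28 (adjusted p = 0.0681), and neither was called.

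Reads on Rtl1 in pESCs, which have no paternal chromosome, must be read beside the microRNA hairpins printed above. Of the exon bases of Rtl1, 8.4% are shared with other genes of the domain, those hairpins among them. The labels and the methods name different library kits, neither known to mark strand, and TPM values do not show whether strand was used. Unless it was, reads from Rtl1 itself and from RNA of the opposite strand cannot be told apart. None of the 50-base stretches of Rtl1 occurs in a gene outside the domain.

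Dlk1, a membrane protein related to the Notch ligands, had no read in either ESC library or either pESC library. It stood at 0.111 and 0.0869 TPM in ESC-PGCLCs (3 and 2 reads), at 0.228 and 0.319 TPM in pESC-PGCLCs (11 and 17 reads) and at 0.915 and 0.528 TPM in PGCs (33 and 27 reads). The 3 groups with reads did not overlap one another, in the order ESC-PGCLC, pESC-PGCLC and PGC. Such separation of 2 from 2 libraries was common: 41.8% of all genes tested lay wholly higher in pESC-PGCLCs than in ESC-PGCLCs, 50.0% in PGCs than in ESC-PGCLCs and 37.4% in PGCs than in pESC-PGCLCs. The level in PGCs was 7.27-fold that of ESC-PGCLCs and 2.63-fold that of pESC-PGCLCs, and the level in pESC-PGCLCs was at least 4.51-fold above that of pESCs. On the log2(TPM + 1) scale these differences were 0.64 (95% interval 0.36 to 0.91, limma adjusted p = 0.00671), 0.43 (0.15 to 0.70, adjusted p = 0.0612) and 0.35 (0.07 to 0.62, adjusted p = 0.0438), and none reached 2-fold on that scale. Between the PGCLCs of the 2 origins the difference was 0.21 (-0.06 to 0.49, adjusted p = 0.253).

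Dio3, the deiodinase that inactivates thyroid hormone, had between 1 and 16 reads a library. It stood at 0.374 and 0.249 TPM in ESCs, at 0.0561 and 0.341 TPM in pESCs, at 0.414 and 0.363 TPM in ESC-PGCLCs and at 0.116 and 0.471 TPM in pESC-PGCLCs, groups that overlapped. Of all genes tested, 50.0% lay wholly higher in PGCs than in ESC-PGCLCs and 37.4% in PGCs than in pESC-PGCLCs. For Dio3 too the PGC libraries, at 1.24 and 0.763 TPM, were above all the others. Their mean was 2.57-fold that of ESC-PGCLCs (log2 difference 0.52, 95% interval 0.07 to 0.96, limma adjusted p = 0.078) and 3.41-fold that of pESC-PGCLCs (0.63, 0.19 to 1.08, adjusted p = 0.0776), and neither passed the threshold.

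Against ESC-PGCLCs, 0 of 6 members were called in PGCs, beside 13.8% of all genes, while 2 members had an unadjusted p under 0.05 and 1, Dlk1, was called by limma-voom (2.40, adjusted p = 0.0145). Against pESC-PGCLCs, 0 of 6 were called beside 3.67% of all genes, with 2 at an unadjusted p under 0.05 and 0 by limma-voom. The median difference of the members was 0.20 and 0.13, beside 0.27 and 0.11 over all genes. Meg3 differed between PGCs and ESC-PGCLCs by 0.27 (limma adjusted p = 0.211) and Rian by 0.12 (adjusted p = 0.740).

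Markers of other cell types differed between these groups too. The summed levels of gonadal somatic and mesenchymal markers were ordered like Dlk1, though not every gene of the lists was. The summed level of 8 markers of gonadal somatic cells ran from 4.83 to 5.35 TPM in stem cells, 18.5 to 23.7 TPM in ESC-PGCLCs, 40.6 to 47.8 TPM in pESC-PGCLCs and 81.9 to 88.6 TPM in PGCs. Of these 8 genes, 7 were called higher in PGCs than in ESC-PGCLCs, beside 13.8% of all genes called in either direction. Wt1 was among the 7, and stood at 7.16 and 8.05 TPM in ESC-PGCLCs and at 26.2 and 22.4 TPM in PGCs. Star was not called (0.19, limma adjusted p = 0.613), and Amhr2 was lower in ESC-PGCLCs (1.26 and 2.33 TPM) than in ESCs (4.22 and 3.57 TPM). The summed level of 11 fibroblast and mesenchyme markers ran from 6.20 to 6.37 TPM in ESC-PGCLCs, 9.88 to 11.9 TPM in pESC-PGCLCs and 12.6 to 13.7 TPM in PGCs. Of these, Col3a1, a collagen of connective tissue, was called higher in PGCs than in ESC-PGCLCs (6.12 and 7.45 against 2.42 and 2.65 TPM), while Thy1 passed 0.11 TPM in no library. Twist1 was highest in ESC-PGCLCs (1.81 and 1.96 TPM, against 1.54 and 1.43 TPM in PGCs). Lum and Col1a1 were highest in pESC-PGCLCs (1.73 and 0.825 TPM, and 0.555 and 0.421 TPM) and lower in PGCs (0.448 and 0.407 TPM, and 0.382 and 0.270 TPM). The summed level of 7 blood markers ran from 458 to 522 TPM in ESC-PGCLCs, from 2798 to 3322 TPM in pESC-PGCLCs and from 1870 to 2085 TPM in PGCs, so it was highest in pESC-PGCLCs. That of 5 endothelial markers ran from 2.25 to 3.20 TPM in stem cells, from 1.10 to 1.73 TPM in ESC-PGCLCs, from 2.40 to 3.15 TPM in pESC-PGCLCs and from 3.36 to 3.83 TPM in PGCs. Tek made up most of the stem cell sum and was called lower in both comparisons of PGCLCs with stem cells (-1.60 and -1.09). The other 4 had positive changes there, none called. The part of such cells in the levels of Dlk1 and Dio3 was not tested. Germ cell markers, 11 genes among which Dppa3 was abundant, summed to 5668 TPM or more in every PGCLC and PGC library and to at most 932 TPM in stem cells.

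Between pESCs and ESCs the domain was compared for the lack of a paternal chromosome, and the maternal noncoding genes were not higher in the parthenogenetic cells. Mean Meg3 was 1.21-fold lower in pESCs (log2 difference -0.19, 95% interval -0.54 to 0.16, limma adjusted p = 0.645), and mean Rian was 1.35-fold lower (-0.36, -0.87 to 0.15, adjusted p = 0.492). Mirg was 3.31-fold lower (-0.58, -0.83 to -0.33, adjusted p = 0.0541) and Rtl1 2.49-fold lower (-0.45, -0.70 to -0.21, adjusted p = 0.0753). For Meg3, Mirg and Rtl1 both pESC libraries lay under both ESC libraries, as they did for 31.3% of all genes tested, and for Rian the higher pESC library reached the range of ESCs. Dio3 differed by -0.14 (-0.59 to 0.31, adjusted p = 0.882).

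In that comparison 0 of 6 members were called by limma, beside 0.781% of all genes, with 2 members (Mirg and Rtl1) at an unadjusted p under 0.05 and 0 called by limma-voom. The median difference of the members was -0.28, beside -0.06 over all genes. Without pESC replicate 2 the adjusted p of Mirg was 0.0498 and that of Rtl1 0.0453, still short of 2-fold on the log2(TPM + 1) scale. Of Dlk1, which had no read in either group, the level of 3 reads was on average 0.0511 TPM in ESCs and 0.0608 TPM in pESCs, and no difference could be detected under it.

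Between pESC-PGCLCs and ESC-PGCLCs, 0 of 6 members were called by limma, beside 13.4% of all genes, and 0 had an unadjusted p under 0.05 or were called by limma-voom. The median difference of the members was 0.10, beside 0.12 over all genes. Meg3 differed by 0.08 (95% interval -0.27 to 0.43, limma adjusted p = 0.768) and Rian by 0.11 (-0.40 to 0.62, adjusted p = 0.784). The intervals leave room for differences of moderate size in either direction on that scale.

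The change on differentiation was compared between the origins by an interaction term. For Rtl1 the drop was smaller in the parthenogenetic cells by 0.58 (log2, SE 0.150, limma adjusted p = 0.0284) and for Mirg by 0.53 (SE 0.153, adjusted p = 0.0407), from a lower start in pESCs. Neither reached 2-fold on that scale, so 0 of 6 members were called, beside 19.1% of all genes, with 2 at an unadjusted p under 0.05. Limma-voom, which compares relative changes, called Rtl1 (3.39, adjusted p = 0.0396) and gave Mirg a value of the opposite sign, -0.20 (adjusted p = 0.923). The median of the members was 0.37, beside 0.21 over all genes.

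Across the 10 libraries, on log2(TPM + 1), Meg3 and Rian were the closest pair (Pearson's r = 0.984). Rtl1 lay with the noncoding genes (r = 0.937 with Mirg, 0.928 with Rian and 0.908 with Meg3), and Dlk1 lay with Dio3 (0.840) and ran against Rian (-0.651). These 10 points fall into groups and share libraries, so the values are a description. The ratio of Rian to Meg3 in TPM ran from 1.51 to 1.56 in ESCs, was 1.09 and 1.62 in pESCs, and ran from 0.474 to 1.10 over the other 6 libraries.

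Among 14838 other genes that averaged 1 TPM or more, the patterns most like Meg3 over the 10 libraries were those of Mpzl2 (r = 0.996), Tfcp2l1 (0.995) and F2rl1 (0.995). Those most like Rian were Calhm5 (0.997), Iglc3 (0.996) and Igkv12-89 (0.995). Tfcp2l1, a factor of the naive pluripotency network, stood at 30.9 and 29.6 TPM in ESCs and at 2.12 and 1.74 TPM in ESC-PGCLCs. Dio3 was most like Zcchc8 (r = 0.966), Ocln (0.950) and Bcl2l2 (0.946).

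Of the other 52 rows of the domain, 29 could be tested. Several of them, Gm23474 and Mir127 among them, had no read outside stem cells and passed the filter through stem cell libraries alone. For such rows only a fall from stem cells could be found. Several rows also lie wholly in exons of Rian or Meg3. The counts and medians that follow are therefore a description, partly set by the filter. From ESCs to ESC-PGCLCs 19 of them were called lower and 0 higher, with a median change of -2.73, beside 14.5% of all genes called lower. From pESCs to pESC-PGCLCs 11 were called lower and 1 higher, with a median of -1.59, beside 6.8% of all genes called lower. The rows called lower were snoRNA and longer noncoding rows and, from ESCs, also the miRNA rows Mir1906-1 and Mir127. Over both ESC libraries Mir1906-1 held 10 reads and Mir127 held 3, and ESC-PGCLCs held none of either. Their mean levels in ESCs were 6.17 and 1.98 TPM. These lay under the level of 3 reads in ESC-PGCLCs (8.55 and 9.77 TPM), so both calls are uncertain. From pESCs no miRNA row was called by limma, with Mir1906-1 at -0.69 (adjusted p = 0.0579) and Mir127 at -0.70 (adjusted p = 0.182). Between pESCs and ESCs 0 were called by limma, beside 0.781% of all genes, with a median of -0.60. Between the PGCLCs 2 were called higher in those from pESCs, Gm23347 and Mir1906-1, against no read of either in ESC-PGCLCs. Of all genes tested, 13.4% were called in that comparison. Mir1906-1 rested on 1 read in each pESC-PGCLC library, and the mean level of Gm23347 there was near that of 3 reads in an ESC-PGCLC library, so at this depth the difference between origins is uncertain for both.

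Summed over the 18 snoRNA rows, ESC libraries held 19.7 and 22.9 RPM and pESC libraries 10.9 and 21.5, while the other 6 libraries held between 0.779 and 1.42. Meg3, Rian and Mirg together held 70.5 and 77.7 RPM in ESCs, 50.3 and 70.0 in pESCs and between 5.75 and 10.4 in the others. The 21 miRNA rows never passed 1.56 RPM. All stem cell libraries lay above all others in the first 2 sums. Reads of this kind on short rows cannot be told apart from those of the host RNA that spans them, and the library methods named do not select small RNAs.

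**Figure D3:**
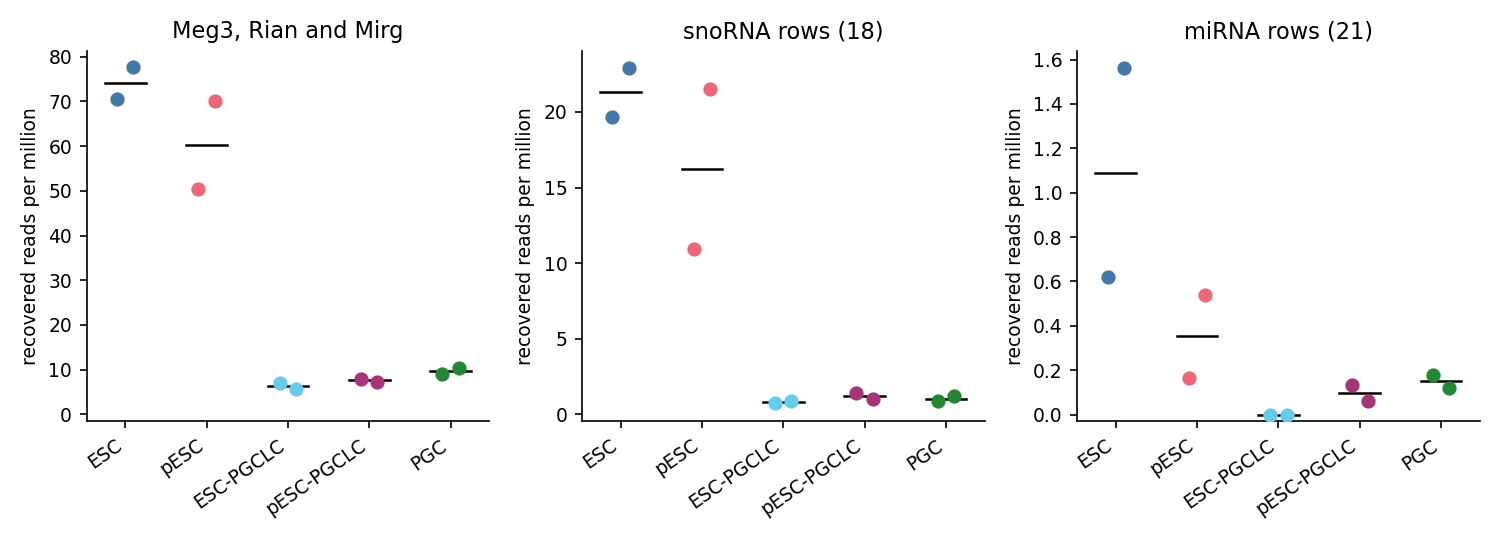
RPM from recovered reads (linear axes, each from 0) of the host RNAs Meg3, Rian and Mirg, of 18 snoRNA rows and of 21 miRNA rows, by group, with points for libraries and a line for the mean of 2. The means of all 3 sums are highest in ESCs, and the lower pESC point is replicate 1 in each.

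**Figure D4:**
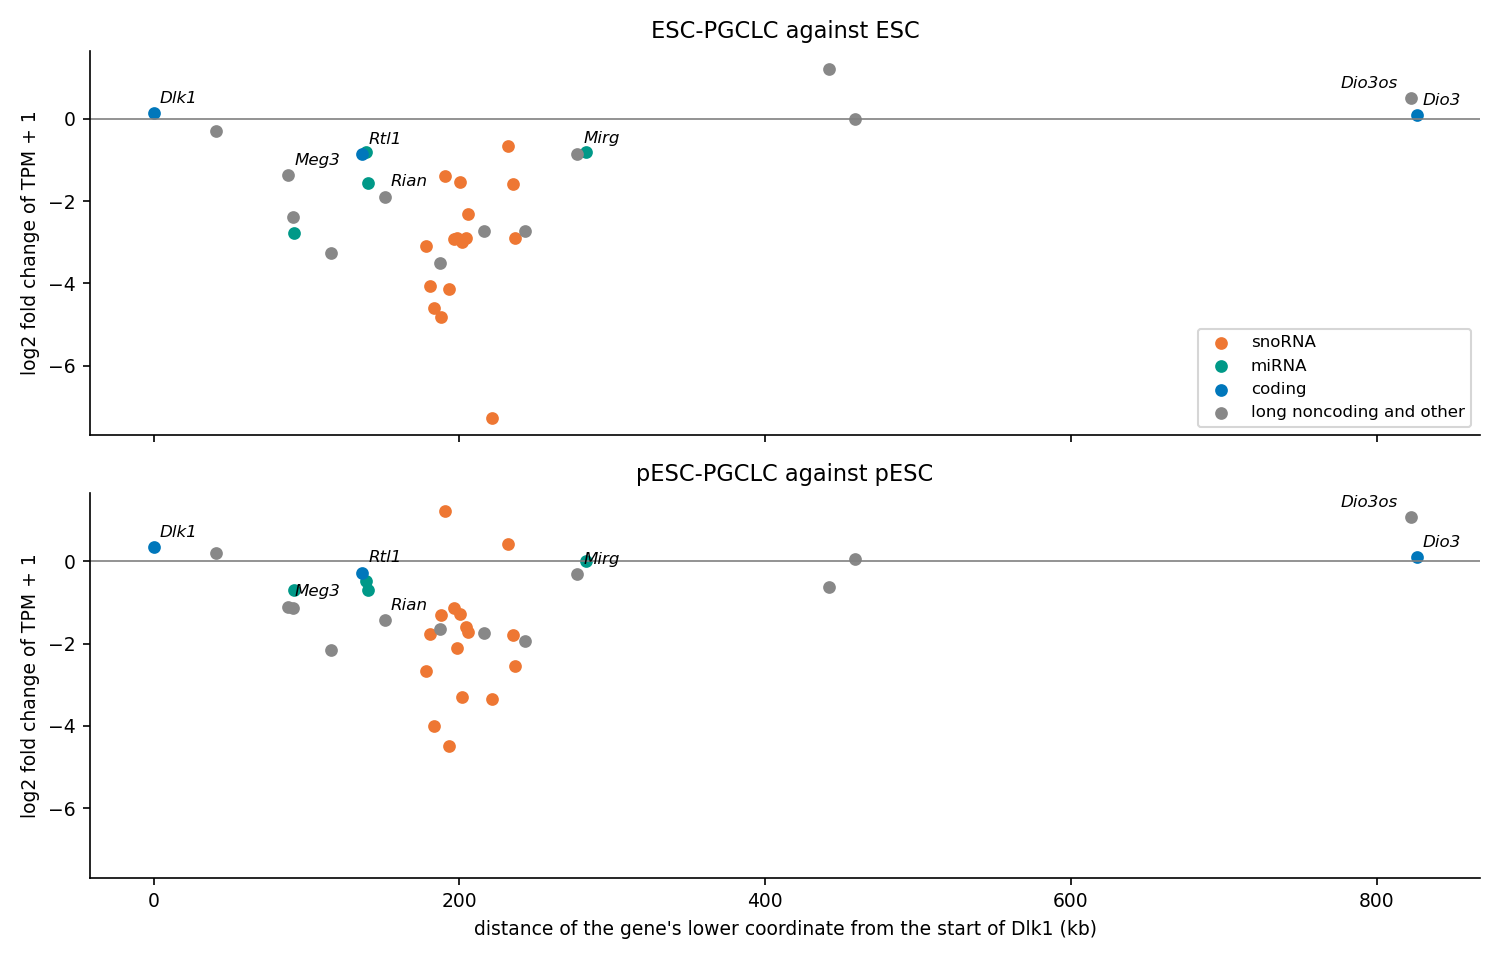
Log2 fold change of TPM + 1 of the 6 members and the 29 other rows tested, for ESC-PGCLCs against ESCs (top) and pESC-PGCLCs against pESCs (bottom), by the distance in kb of each gene's lower coordinate from the start of Dlk1, coloured by the kind of gene. Most points from Meg3 to Mirg, the snoRNA rows furthest, lie below 0, while Dlk1, Dio3 and Dio3os lie at or above it.

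Gm23347, the row with the highest mean among them, stood at 140 and 167 TPM in ESCs and at 73.5 and 94.3 TPM in pESCs. It had no read in ESC-PGCLCs and stood at 12.9 and 3.89 TPM in pESC-PGCLCs and at 3.82 and 5.40 TPM in PGCs. Its fall was called in both comparisons with stem cells (limma adjusted p = 9.3e-06 and 0.000461), with the former on a fitted value that depends on the added 1, since no read was found in ESC-PGCLCs. AF357425 stood at 89.2 and 70.3 TPM in ESCs and at 57.7 and 123 TPM in pESCs, against 0 and 10.1 TPM in ESC-PGCLCs and 3.22 and 5.82 TPM in pESC-PGCLCs (limma adjusted p = 0.00557 and 0.0113). Gm26922 and Gm24895 were called lower in both comparisons as well, by between 2.99 and 4.49 on the log2 scale.

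Gm26906, a lincRNA gene antisense to Meg3 whose exons lie wholly within Meg3 exons, stood at 13.8 and 13.9 TPM in ESCs and at 11.4 and 9.68 TPM in pESCs. It stood at no more than 1.80 TPM in the other 6 libraries and fell by 3.25 (limma adjusted p = 2.89e-05) and by 2.15 (adjusted p = 0.000279). Unless strand was used in counting, its reads and those of Meg3 cannot be told apart. Gm26945, which carries the snoRNA Gm24899, stood at 11.8 and 15.4 TPM in ESCs and at 2.60 and 10.7 TPM in pESCs, and fell by 3.51 (adjusted p = 0.000574) and by 1.65 (adjusted p = 0.0243). The remaining rows among the 10 of highest mean level were Gm3379, a pseudogene with 90.4% of its 50-base stretches in genes elsewhere, and the snoRNAs Gm25224 and Gm23474, which had at most 1 library above 0 among pESC-PGCLCs and PGCs.

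Dio3os, the noncoding gene beside Dio3, was the row called higher. It stood at 0.0645 and 0.200 TPM in ESCs (1 and 4 reads) and at 0.0676 and 0 TPM in pESCs (1 and 0 reads). It stood at 0.625 and 0.584 TPM in ESC-PGCLCs, at 1.60 and 0.821 TPM in pESC-PGCLCs and at 1.86 and 2.63 TPM in PGCs, without overlap between the stem cells and the rest. Of all genes tested, 38.4% lay wholly higher in ESC-PGCLCs than in ESCs and 50.0% in pESC-PGCLCs than in pESCs. In RPM the level in pESC-PGCLCs was 28.7-fold that of pESCs (exact 95% interval 4.83 to 1165, log2 difference 1.08, limma adjusted p = 0.00349), and PGCs stood 3.72-fold above ESC-PGCLCs in mean TPM (1.01, adjusted p = 0.00959).

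The genes flanking the domain, 12 genes outside the imprinted cluster, did not fall as a group. From ESCs to ESC-PGCLCs 3 rose and 2 fell, with a median of -0.04, and from pESCs to pESC-PGCLCs 3 rose and none fell, with a median of 0.23. Of all genes tested, 15.3% were called higher and 14.5% lower in the former comparison, and 20.8% and 6.8% in the latter. Degs2, an enzyme of sphingolipid synthesis, rose by 1.61 and 1.63 on the log2 scale, and Evl, a regulator of actin filaments, by 1.53 and 1.64. Wars, a tryptophanyl-tRNA synthetase, fell by 1.83 in the former comparison alone, with a called interaction of 1.86 (limma adjusted p = 0.00465). Between pESCs and ESCs none of the 12 was called, beside 0.781% of all genes, with a median of -0.15.

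Of 15 genes that keep or erase parental marks, 4 rose and 4 fell from ESCs to ESC-PGCLCs, and 8 rose and 4 fell from pESCs to pESC-PGCLCs. Of all genes tested, 15.3% were called higher and 14.5% lower in the former comparison, and 20.8% and 6.8% in the latter. Zfp57, a zinc finger protein that protects methylated imprinting control regions, stood at 29.3 and 19.6 TPM in ESCs and at 9.29 and 11.4 TPM in pESCs, and at no more than 1.68 TPM elsewhere. It fell by 4.44 (limma adjusted p = 1.2e-05) and by 2.36 (adjusted p = 0.000316), and the interaction was called (2.08, adjusted p = 0.00772). Dnmt3l, a cofactor of de novo methylation, stood at 7.59 and 8.39 TPM in ESCs, at 3.73 and 3.90 TPM in pESCs and at no more than 0.960 TPM elsewhere, and fell by 3.17 and 1.40.

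Dppa3, a germ cell factor that guards maternal methylation after fertilization, moved the other way, from 353 and 378 TPM in ESCs and 709 and 873 TPM in pESCs to between 3165 and 5681 TPM in the other libraries. It was the single gene of the 15 called between pESCs and ESCs (1.10, limma adjusted p = 0.0435), beside 0.781% of all genes. Aff3, which binds imprinting control regions, rose by 3.02 and 3.10. Trim28, the corepressor that works with ZFP57, stood at 40.8 and 34.4 TPM in ESC-PGCLCs, at 112 and 118 TPM in pESC-PGCLCs and at 158 and 115 TPM in PGCs, and was called higher in pESC-PGCLCs than in ESC-PGCLCs (1.60, adjusted p = 0.00107).

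**Figure D5:**
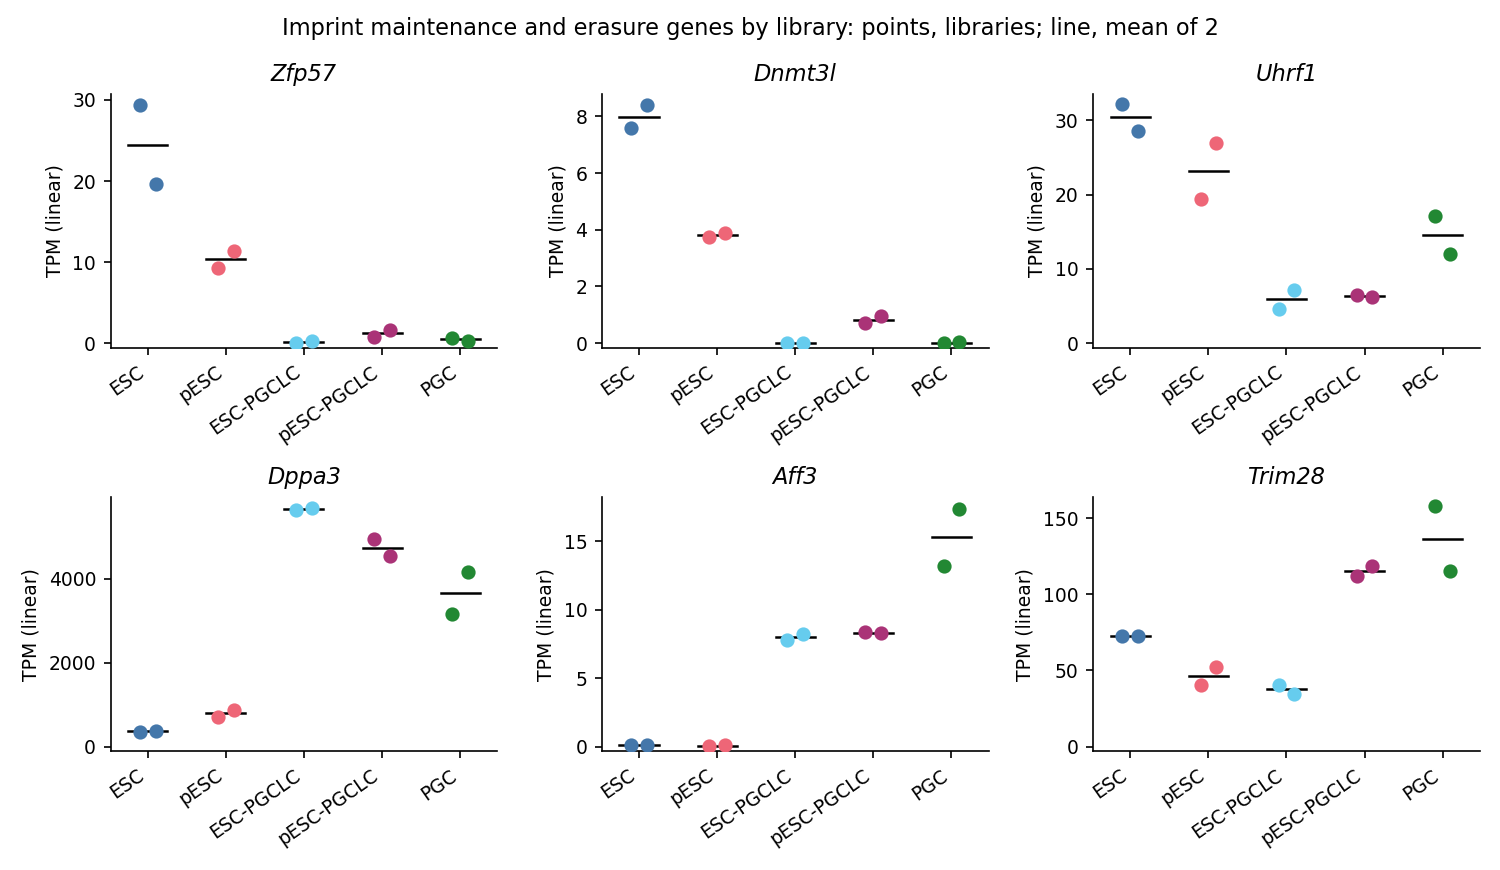
Level in TPM (linear axes from 0) of 6 genes of imprint maintenance and erasure by group, with points for libraries and a line for the mean of 2. Zfp57, Dnmt3l and Uhrf1 are highest in stem cells, Dppa3 and Aff3 are lowest there, and Trim28 is above 100 TPM in pESC-PGCLCs and PGCs.

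Genes linked to the coding members were listed as well. Of 21 genes of the Notch pathway, with which Dlk1 is thought to interact, 19 could be tested. From ESCs to ESC-PGCLCs 3 rose, while 5 rose and 1 fell from pESCs to pESC-PGCLCs. Of all genes tested, 29.8% were called in the former comparison and 27.6% in the latter. The pathway was thus not called more often than genes at large in the former, and was near them in the latter. The receptor Notch2 rose by 3.04 and 2.36, its target Hey1 by 2.72 and 2.39 and the ligand Dll1 by 1.62 and 1.46, while Hes1 fell by 1.28 in the latter comparison. The ligand Dll3 had a called interaction (1.45, limma adjusted p = 0.0203). Of 9 genes of thyroid hormone handling, beside Dio3, 7 could be tested. The receptor gene Thra was called higher in pESC-PGCLCs (1.04, adjusted p = 0.00504) and PGCs (1.06, adjusted p = 0.0051) than in ESC-PGCLCs.

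Of 4 listed genes of other domains under a paternally methylated region, 3 were tested and 2 were called, both higher, in each comparison with stem cells. Of all genes tested, 29.8% were called from ESCs and 27.6% from pESCs. The 2 genes called, H19 and Igf2, are neighbours in the same domain. The third, Zdbf2, changed by -0.74 from ESCs to ESC-PGCLCs (limma adjusted p = 0.0218) and by -0.15 from pESCs to pESC-PGCLCs (adjusted p = 0.614), and was not called. H19, a maternally expressed noncoding RNA, stood at no more than 0.234 TPM in stem cells, at 5.90 and 7.59 TPM in ESC-PGCLCs, at 36.3 and 31.1 TPM in pESC-PGCLCs and at 120 and 84.0 TPM in PGCs. It rose by 2.84 and 4.87 in the comparisons in which Meg3 fell (limma adjusted p = 2.55e-05 and 4.87e-06). Its neighbour Igf2, a growth factor expressed from the paternal copy, rose by 1.41 and 3.35 (adjusted p = 0.000254 and 7.35e-06).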

How the data were processed

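RNA-seq of 10 libraries was used, in the groups the sample titles give. The authors aligned reads to mm10 and deposited TPM for 36066 genes by symbol. The submitters' processing notes name Bowtie2, HISAT2, RSEM and R 3.4.2, and the methods name Hisat2 and featureCounts. Settings for overlapping genes are not given in the sources used here. Labels and methods differ on library preparation (NEBNext Ultra against Smart-seq2). Methylation data were not analysed here.

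Rows were placed by the GENCODE M21 annotation (35859 by symbol, 75 to several genes, 132 unmatched). TPM times exon length gave whole reads, within 0.02 reads, for 94.7% to 94.9% of values above 0. The filter asked for 0.1 TPM or more in 2 or more libraries. With limma 3.58.1 in R 4.3.3, group means were fitted over all 10 libraries (5 residual and 2.81 prior degrees of freedom, variance trend) on log2(TPM + 1), after tests on simulated data. Alternatives were another pseudocount, other filters, fits of the compared groups alone, quantile normalization, median centring over 9024 genes, a replicate block, limma-voom and leaving out each replicate. Python 3.11.15 with pandas 2.3.3, numpy 2.4.6, scipy 1.17.1 and matplotlib 3.10.9 did the rest.

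The members and the gene lists were chosen with earlier results of these data known. Named were the members, the 10 other domain rows of highest mean, up to 4 called genes per list and comparison with the largest change, and the 3 genes most like a member that reached 1 TPM. Dio3os, Mir1906-1, Mir127, Hes1, Zdbf2, Sox2, Star, Amhr2, Twist1, Lum, Col1a1 and Tek were named after their values were seen, and Wt1, Col3a1 and Thy1 as markers. Sequences are those of RefSeq and of the GRCm38 annotation.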

Additional observations from a re-analysis of the deposited data

Results flagged for a closer look

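For Rtl1 and Mirg the interaction of origin and differentiation had an adjusted p under 0.05 but was short of 2-fold on the log2(TPM + 1) scale, so neither was called. For Rtl1 the interaction was 0.58 on the log2(TPM + 1) scale (limma adjusted p = 0.0284), and both pESC libraries were under both ESC libraries while ESC-PGCLCs held no read. Over 15 alternatives its value ran from 0.50 to 3.39, and the adjusted p, from 0.022 to 0.0819, was under 0.05 in 9 of them.

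For Mirg the interaction was 0.53 (limma adjusted p = 0.0407). Over 15 alternatives its value ran from -0.20 to 1.13, and the adjusted p, from 0.0182 to 0.923, was under 0.05 in 3 of them. All 4 PGCLC libraries held at most 2 reads of Mirg. As a ratio of RPM its drop was about the same in both origins (19.96-fold from ESCs and 21.3-fold from pESCs), and a difference between the origins is not shown for Mirg.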

How the results depend on the processing

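Meg3 and Rian were called lower in both comparisons of PGCLCs with stem cells under every alternative run, with Meg3 between -3.01 and -1.002 and Rian between -3.91 and -1.11. The number of members called rose from 2 to 4 (pseudocount of 0.1) or 5 (limma-voom, with Dlk1 called higher) in ESC-PGCLCs against ESCs and in pESC-PGCLCs against pESCs. It rose from 0 to 1 in PGCs against ESC-PGCLCs under both of these (Dlk1), and from 0 to 1 for the interaction under limma-voom (Rtl1). Quantile normalization called Rtl1 as well in ESC-PGCLCs against ESCs (-1.05), so the count was 3. Leaving out 1 library moved no count of members called past this range. Same-numbered replicates did not deviate together (correlations from -0.0507 to 0.0449 over 14838 genes), and the replicate block left each count of members called as it was (2 and 2 against stem cells, 0 elsewhere).

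Member differences that changed sign were all uncalled. Under quantile normalization these were Meg3 between the PGCLCs (-0.039), Dio3 in ESC-PGCLCs against ESCs (-0.010) and in pESC-PGCLCs against pESCs (-0.10), Dio3 and Meg3 for the interaction (-0.085 and -0.016), Rian and Mirg in PGCs against ESC-PGCLCs (-0.059 and -0.10) and Rian in PGCs against pESC-PGCLCs (-0.062). Under median centring they were Meg3 between pESCs and ESCs (0.038) and between the PGCLCs (-0.024), Dio3 in pESC-PGCLCs against pESCs (-0.014), Dio3 and Meg3 for the interaction (-0.11 and -0.062), Rian and Mirg in PGCs against ESC-PGCLCs (-0.017 and -0.015) and Rian in PGCs against pESC-PGCLCs (-0.035). By limma-voom they were Dio3 and Mirg for the interaction (-0.061 and -0.20) and Mirg in PGCs against ESC-PGCLCs (-0.074). Without 1 library at a time, Dio3 ran from -0.31 to 0.034 between pESCs and ESCs (positive without pESC replicate 1), from -0.32 to 0.084 between the PGCLCs (positive without pESC-PGCLC replicate 1), from -0.093 to 0.31 in pESC-PGCLCs against pESCs (negative without pESC replicate 1 or pESC-PGCLC replicate 2) and from -0.18 to 0.22 for the interaction. Mirg ran from -0.0037 to 0.029 in PGCs against ESC-PGCLCs, and Rian from -0.082 to 0.096 in PGCs against pESC-PGCLCs. The cause was not tested.

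Scaling moved the median of all genes by over 0.1 in several comparisons, such as from 0.27 to 0 in PGCs against ESC-PGCLCs under quantile normalization. Over all genes, 213 were called between pESCs and ESCs, against 0 in a fit of these groups alone, 78 with the replicate block, 122 under quantile normalization, 134 with no filter, 402 with a filter of 1 TPM, 459 by limma-voom and between 30 (without ESC replicate 1) and 953 (without pESC replicate 2) when 1 library was left out. Between PGCs and pESC-PGCLCs 1000 were called, against 0 in a fit of these groups alone, 631 with no filter, 1956 by limma-voom and between 34 (without pESC-PGCLC replicate 2) and 1966 (without PGC replicate 2) when 1 library was left out. Depth limits Dlk1, Rtl1, Mirg and Dio3 most, with 0 to 3 reads in many libraries.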
